A study of Mus musculus with 12 samples.

Results

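The 48 genes described here encode lysosomal enzymes, lysosomal membrane proteins, subunits of the lysosomal proton pump and the transcription factors that bind their promoters. They were taken by gene symbol from a list of names, 48 of the 53801 genes of the series, and the list was drawn up with earlier results of these data known. RNA from whole hearts of C57BL/6N mice, adult males per the study's methods, was sequenced after sham surgery (4 hearts), 1 day after AMI (day 1 AMI, 4 hearts) and 7 days after AMI (day 7 AMI, 4 hearts). AMI was produced by permanent suture ligation of the LAD, with no reperfusion, and the labels do not tie a day to the sham hearts. Every group carried the wild-type genome and had no drug treatment named in the labels. A whole infarcted heart mixes infarct, border and remote tissue, and in such bulk RNA fewer cells of a type and less RNA per cell cannot be told apart.

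Lysosomes are acidic organelles in which hydrolases digest proteins, glycans, lipids and nucleic acids delivered by endocytosis, phagocytosis and autophagy. A proton pump, the V-ATPase, keeps the lumen acidic, and heavily glycosylated membrane proteins such as LAMP1 and LAMP2 line the inner face of the membrane. Cardiomyocytes depend on lysosomes to clear organelles and glycogen, and macrophages, which clear dead cells after an infarct, are rich in them. TFEB, TFE3 and MITF are related transcription factors of the MiT/TFE family that bind CACGTG-type sites in the promoters of many lysosomal genes.

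All 48 genes passed the filter on low counts and were among the 15306 genes tested. Values are given as CPM, the TMM-normalized share of a library's counts, and comparisons as log2 fold changes (FC) with their standard errors. FDR is the Benjamini-Hochberg adjusted p of edgeR's quasi-likelihood test over all of these. A gene rose or fell where its FDR was below 0.05, and a DEG had in addition a FC of 2 or greater. Levels of different genes are compared only in TPM, which accounts for transcript length.

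Several properties of the libraries bear on all values. The 12 libraries held between 23204551 and 32166517 counts. Mitochondrial transcripts took 17.9% to 27.4% of the counts in sham hearts, 12.1% to 15.9% on day 1 and 13.2% to 19.2% on day 7, and the TMM factors ran from 0.781 to 0.917, from 1.01 to 1.06 and from 1.10 to 1.17. Without the TMM factors the median log2 FC of all genes was 0.26 on day 1 and 0.43 on day 7, and with log2(TPM + 1) it was 0.23 and 0.44, against -0.012 and 0.026 with TMM. Falls named here are therefore falls relative to the median gene, and the sign of a small fall depended on the scaling. Sham heart 2 stood apart in erythroid transcripts, whose 7 markers summed to 4467 CPM there and to between 491 and 1182 CPM in the other sham hearts. Without sham heart 2 the counts of lysosomal genes that rose and fell were 17 and 8 on day 1 and 31 and 7 on day 7.

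Promoter sequences are shown first because the MiT/TFE site is what many of these genes are known to share. RefSeq (GRCm38.p6) promoter windows, 250 bases before to 50 bases after the start, were found for 42 of the 48 genes. Asah1, Atp6v0d2, Atp6v1b2, Ctsb, Ctsh and Npc1 were not matched. The 6-letter core CACGTG, which reads the same on both strands, was present in 13 of the 42 genes (31.0%) and in 8.09% of all 27025 genes of the table. The 10-letter CLEAR palindrome, which holds the core at its centre and was searched on both strands, was present in 0 of the 42 genes and in 0.370% of all genes. The 7-letter TCACGTG, or CACGTGA on the other strand, which overlaps the core and was searched after the core had been counted, was present in 12 of the 42 genes (28.6%) and in 4.29% of all genes. A match describes the letters of the window and is not evidence of binding. The 13 genes with the core were *Atp6v0d1*, *Atp6v1a*, *Ctsa*, *Ctsd*, *Ctsl*, *Gaa*, *Gla*, *Glb1*, *Lamp1*, *Lgmn*, *Mcoln1*, *Naglu* and *Sgsh*. Some genes had several windows, and a gene was counted where any of them held the core. By window, the core was in 13 of 52 (25.0%) and in 7.15% of all 32851. *Ctsa* and *Lgmn* also had a window without the core. Positions are counted from the start of the window that holds the core.

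The 150 bases before the start are printed for 5 of these genes, with the core in capitals, and for *Ctss*, the gene with the largest day 7 FC of the 48, as an example with no core in its window. *Lamp1* had the most cores, with first bases at -61, -45, -28 and -15 from the start, and *Mcoln1*, the gene of a lysosomal calcium channel, had cores at -71 and -45. *Ctsa* had cores at -12 and 6, of which the first is printed, *Atp6v1a* had its core at -131, and *Gaa* had its core at -140.
Lamp1 (chr8:13159011-13159160, plus strand): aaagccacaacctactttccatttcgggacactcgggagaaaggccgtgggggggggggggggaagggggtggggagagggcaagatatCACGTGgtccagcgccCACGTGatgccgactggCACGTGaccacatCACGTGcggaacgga
Mcoln1 (chr8:3500369-3500518, plus strand): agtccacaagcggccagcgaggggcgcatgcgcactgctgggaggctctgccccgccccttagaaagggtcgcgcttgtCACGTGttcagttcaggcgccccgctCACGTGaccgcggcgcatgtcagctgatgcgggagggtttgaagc
Ctsa (chr2:164833623-164833772, plus strand): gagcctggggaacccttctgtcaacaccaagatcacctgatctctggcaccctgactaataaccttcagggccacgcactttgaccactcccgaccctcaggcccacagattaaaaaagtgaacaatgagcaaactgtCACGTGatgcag
Atp6v1a (chr16:44139260-44139409, minus strand): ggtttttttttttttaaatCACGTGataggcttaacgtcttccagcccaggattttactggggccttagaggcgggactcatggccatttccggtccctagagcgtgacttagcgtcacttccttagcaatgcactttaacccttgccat
Gaa (chr11:119267813-119267962, plus strand): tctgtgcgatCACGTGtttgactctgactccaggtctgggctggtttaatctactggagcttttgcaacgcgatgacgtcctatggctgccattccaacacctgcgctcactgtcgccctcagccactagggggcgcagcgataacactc
Ctss (chr3:95526636-95526785, plus strand): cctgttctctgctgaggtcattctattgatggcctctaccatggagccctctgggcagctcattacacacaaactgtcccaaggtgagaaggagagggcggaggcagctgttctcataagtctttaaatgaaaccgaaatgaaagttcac

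The first comparison, day 1 AMI against sham, asked how the lysosomal genes stood within a day of infarction. The genes that rose included *Cd68* and *Slc11a1*, known from phagocytes, and the broadly expressed *Ctsb*, *Atp6v1a*, *Asah1* and *Gusb*, and those that fell with TMM included *Lamp1*, *Psap* and *Ctsl*, none of which fell past the test on the log2(TPM + 1) scale. In all, 18 of the 48 genes rose (22% of all genes tested rose) and 10 fell (19.9% of all genes fell), while 20 did not pass. The DEGs were 7 genes that rose (7.79% of all genes), namely *Slc11a1*, *Ctss*, *Acp5*, *Cd68*, *Ctsz*, *Laptm5* and *Cd63*. No gene of the 48 fell by a FC of 2 or greater (2.98% of all genes), at an unadjusted p below 0.05 or with DESeq2 or limma either. The median log2 FC of the 48 genes was 0.092, against -0.012 for all genes tested. The hearts of the compared groups did not overlap for 18 genes that were higher (19.6% of all genes) and 7 that were lower (17.1%). With library totals alone 29 rose and 1 fell, and with log2(TPM + 1) 29 rose and 0 fell.

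On day 7 the rise was broader. Against sham, 32 of the 48 genes rose (30.9% of all genes) and 8 fell (28.4%), with 8 not past the test. The DEGs were 11 genes that rose (15.3% of all genes): *Ctss*, *Acp5*, *Ctsk*, *Atp6v0d2*, *Cd68*, *Slc11a1*, *Laptm5*, *Ctsz*, *Arsb*, *Gusb* and *Grn*. None fell by a FC of 2 or greater (5.88% of all genes), at an unadjusted p below 0.05 or with the other tools either. The median log2 FC was 0.56 over the 48 genes and 0.026 over all genes tested. Hearts did not overlap for 30 higher (28.3% of all genes) and 8 lower genes (24.7%). With library totals alone 40 rose and 2 fell, and with log2(TPM + 1) 41 rose and 0 fell.

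Between the infarcted groups, day 7 against day 1 AMI, 26 genes rose (24.2% of all genes), 5 fell (22.8%) and 17 did not pass. The rises included 5 DEGs (8.55% of all genes): *Atp6v0d2*, *Ctsk*, *Arsb*, *Acp5* and *Ctss*. No gene fell by a FC of 2 or greater (2.69% of all genes), at an unadjusted p below 0.05 or with the other tools. The median log2 FC was 0.36, against 0.021 for all genes. Hearts did not overlap for 23 higher (23.5% of all genes) and 5 lower genes (20.9%). With library totals alone 30 rose and 1 fell, and with log2(TPM + 1) 35 rose and 1 fell. The comparisons share hearts, so the 3 sets of counts are not independent of each other.

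**Figure D1:**
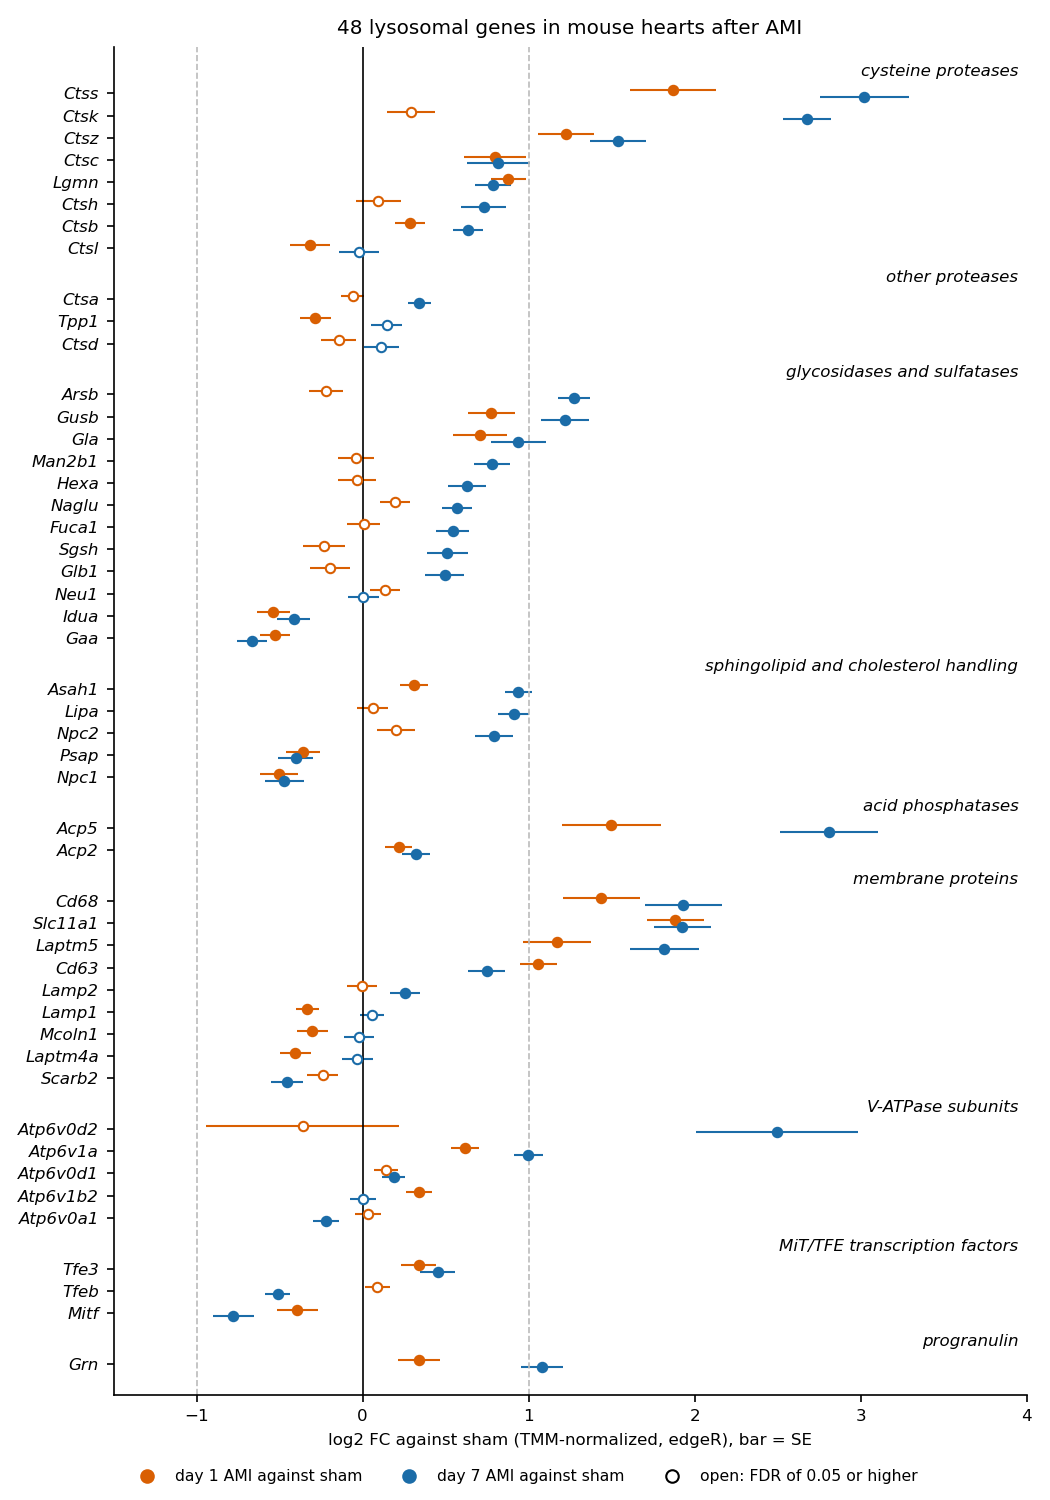
Log2 FC against sham of the 48 lysosomal genes (x axis, log2 scale of TMM-normalized counts), grouped by role and ordered within a role by the day 7 value, with day 1 AMI in orange and day 7 AMI in blue. Bars are SEs, filled points have an FDR below 0.05 and dashed lines mark a FC of 2, past which *Ctss*, *Acp5*, *Ctsk* and *Atp6v0d2* lie farthest on day 7, while the falls to the left of 0 lie relative to the median gene and several change sign on the TPM scale.

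The counts by role stand beside shares of all genes tested of 22% that rose and 19.9% that fell on day 1, and 30.9% and 28.4% on day 7. Of 8 cysteine proteases, 5 rose and 1 fell on day 1, and 7 rose and 0 fell on day 7, when their summed level was 1450 to 1923 CPM against 913 to 1099 CPM in sham hearts. *Ctss* encodes cathepsin S, which processes the invariant chain of MHC class II in antigen-presenting cells, and it was at 19.7, 20.8, 11.4 and 13.3 CPM in the sham hearts, 46.7, 85.3, 45.3 and 61.1 CPM on day 1, and 158, 110.0, 88.8 and 174 CPM on day 7. No heart of one group overlapped a heart of another. It rose 3.65-fold on day 1 (log2 FC 1.87, SE 0.26, FDR 0.00012), 8.13-fold on day 7 (log2 FC 3.02, SE 0.27, FDR 5.98e-07), and again from day 1 to day 7 (log2 FC 1.15, SE 0.25, FDR 0.00173).

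*Ctsk*, cathepsin K, degrades collagen and is best known from osteoclasts. It was at 4.17, 3.53, 3.64 and 5.16 CPM in the sham hearts, 4.21, 5.55, 4.97 and 5.39 CPM on day 1, and 31.1, 24.1, 25.5 and 24.6 CPM on day 7, so the day 1 hearts lay among or just above the sham hearts and all day 7 hearts were far above both. The day 1 difference did not pass (log2 FC 0.29, SE 0.15, FDR 0.122), and the rise on day 7 was 6.39-fold against sham (log2 FC 2.68, SE 0.14, FDR 1.08e-08) and 5.22-fold against day 1 (log2 FC 2.38, SE 0.14, FDR 3.18e-08). The day 1 value passed without sham heart 4, and with library totals alone and on the TPM scale. *Ctsl*, which encodes the broadly used cathepsin L, was at 171, 193, 147 and 165 CPM in the sham hearts, 119.9, 141, 123 and 159 CPM on day 1, and 202, 151, 162 and 151 CPM on day 7. Sham and day 1 hearts overlapped, and so did sham and day 7 hearts. Its fall on day 1 (log2 FC -0.31, SE 0.12, FDR 0.0478) was lost in 9 of the 12 fits that each left out 1 heart, with FDRs up to 0.138, and its day 7 value was -0.021 with TMM and 0.65 on the log2(TPM + 1) scale (FDR 0.00249), where it passed as a rise. In TPM, *Ctsk* was at 2.94% of *Ctsl* in sham hearts, 4.5% on day 1 and 17.3% on day 7.

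The other cysteine proteases rose by smaller amounts. *Ctsz*, an exopeptidase, rose by a log2 FC of 1.23 on day 1 (FDR 0.000105) and 1.54 on day 7 (FDR 3.33e-06). *Ctsc*, which activates the serine proteases of leukocyte granules, rose by 0.80 and 0.82, and *Lgmn*, an asparaginyl endopeptidase, by 0.88 and 0.79. For both, and for *Ctsz*, the day 7 and day 1 hearts overlapped and the change between them did not pass with TMM. Day 7 and sham hearts also overlapped for *Ctsc* with TMM, at 60.2 CPM or more and 64.7 CPM or less. *Ctsb* rose by 0.29 on day 1 and 0.63 on day 7, and its day 1 rise was lost without sham heart 3 or sham heart 4 (FDR up to 0.0619). *Ctsh*, an aminopeptidase, was at 0.095 on day 1, which did not pass with TMM, and rose by 0.73 on day 7.

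Of *Ctsa*, *Ctsd* and *Tpp1*, 0 rose and 1 fell on day 1, and 1 rose on day 7. *Ctsa* encodes cathepsin A, which protects the sialidase NEU1 and β-galactosidase in a complex, and it was at 165, 169, 155 and 156 CPM in the sham hearts, 155, 155, 157 and 151 CPM on day 1, and 223, 188, 204 and 203 CPM on day 7. The day 1 hearts lay within the sham range or just under it, and all day 7 hearts were above both groups (log2 FC 0.34, SE 0.070, FDR 0.000774 against sham). *Ctsd*, the aspartic protease cathepsin D, was at 1242, 1305, 1137 and 1254 CPM in the sham hearts, 1019, 1071, 1109 and 1269 CPM on day 1, and 1576, 1261, 1364 and 1138 CPM on day 7. With TMM, hearts of all groups overlapped and no difference passed the test (day 7 against sham, log2 FC 0.11, SE 0.11, FDR 0.38). In TPM every day 7 heart, at 1032 to 1374, was above every sham heart, at 673 to 820. Over the alternative scalings, filters and tools its day 7 log2 FC against sham ran from 0.088 to 0.67, with FDRs from 0.00019 to 0.535. *Ctsd* lies at chr7:142375911-142388038 on the minus strand (GRCm38), where a same-strand gene, Gm49369, covers 34.4% of the exon bases of *Ctsd*, so its counts are uncertain. *Tpp1*, a tripeptidyl peptidase, fell on day 1 (log2 FC -0.29, SE 0.094, FDR 0.0252) with TMM and was at 0.14 on the log2(TPM + 1) scale (FDR 0.289), and the fall was lost without any of sham hearts 1 and 2 and day 1 hearts 1 and 2 (FDR up to 0.0720).

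Of 12 glycosidases and sulfatases, 2 rose and 2 fell on day 1, and 9 rose and 2 fell on day 7. The day 1 shares were 16.7% each, against 22% and 19.9% of all genes tested. The day 7 shares were 75% and 16.7%, against 30.9% and 28.4% of all genes tested. The day 7 rises comprised *Arsb*, *Gusb*, *Gla*, *Man2b1*, *Hexa*, *Naglu*, *Fuca1*, *Sgsh* and *Glb1*, which act on glycosaminoglycans, glycoproteins and glycolipids, and their log2 FCs ran from 0.49 for *Glb1* to 1.27 for *Arsb*. *Arsb* encodes arylsulfatase B, which removes sulfate from dermatan and chondroitin sulfate, and it was at 11.2, 11.6, 14.1 and 13.6 CPM in the sham hearts, 11.7, 10.7, 10.3 and 10.6 CPM on day 1, and 34.2, 30.4, 27.9 and 29.3 CPM on day 7. The sham and day 1 hearts overlapped, and the lowest day 7 heart was above every other heart. *Arsb* rose 2.42-fold against sham on day 7 (log2 FC 1.27, SE 0.10, FDR 1.86e-07) and 2.82-fold against day 1 (log2 FC 1.49, SE 0.10, FDR 9.86e-08). *Arsb* lies at chr13:93771630-93943016 on the plus strand (GRCm38), where an opposite-strand gene, Gm26527, covers 39.9% of the exon bases of *Arsb*, and the strand that was counted is not given in the sources used here.

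*Gaa* encodes acid α-glucosidase, which digests lysosomal glycogen, and went the other way. It was at 228, 253, 203 and 210.0 CPM in the sham hearts, 149, 143, 163 and 165 CPM on day 1, and 156, 138, 141 and 129.7 CPM on day 7, and every infarcted heart was below every sham heart. It fell by 0.53 on the log2 scale on day 1 (SE 0.090, FDR 0.000467) and by 0.66 on day 7 (SE 0.090, FDR 2.29e-05), stayed lower with library totals alone (log2 FC -0.26 and -0.27, FDR 0.0471 and 0.0295), and was at -0.20 and -0.072 on the log2(TPM + 1) scale, where it did not pass (FDR 0.128 and 0.537). *Idua*, α-L-iduronidase, another enzyme of glycosaminoglycan breakdown, fell by 0.54 and 0.42 with TMM, and its day 7 value was 0.21 on the log2(TPM + 1) scale (FDR 0.149). *Neu1*, the sialidase, passed in neither infarcted group against sham with TMM (0.13 and 0.0047). Over the alternative scalings, filters and tools it reached 0.56 on day 1 and 0.63 on day 7, with FDRs down to 0.00262 and 0.000565. *Gusb* and *Gla* were the genes of this role that already rose on day 1, by 0.78 and 0.71, and they reached 1.22 and 0.94 on day 7.

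**Figure D2:**
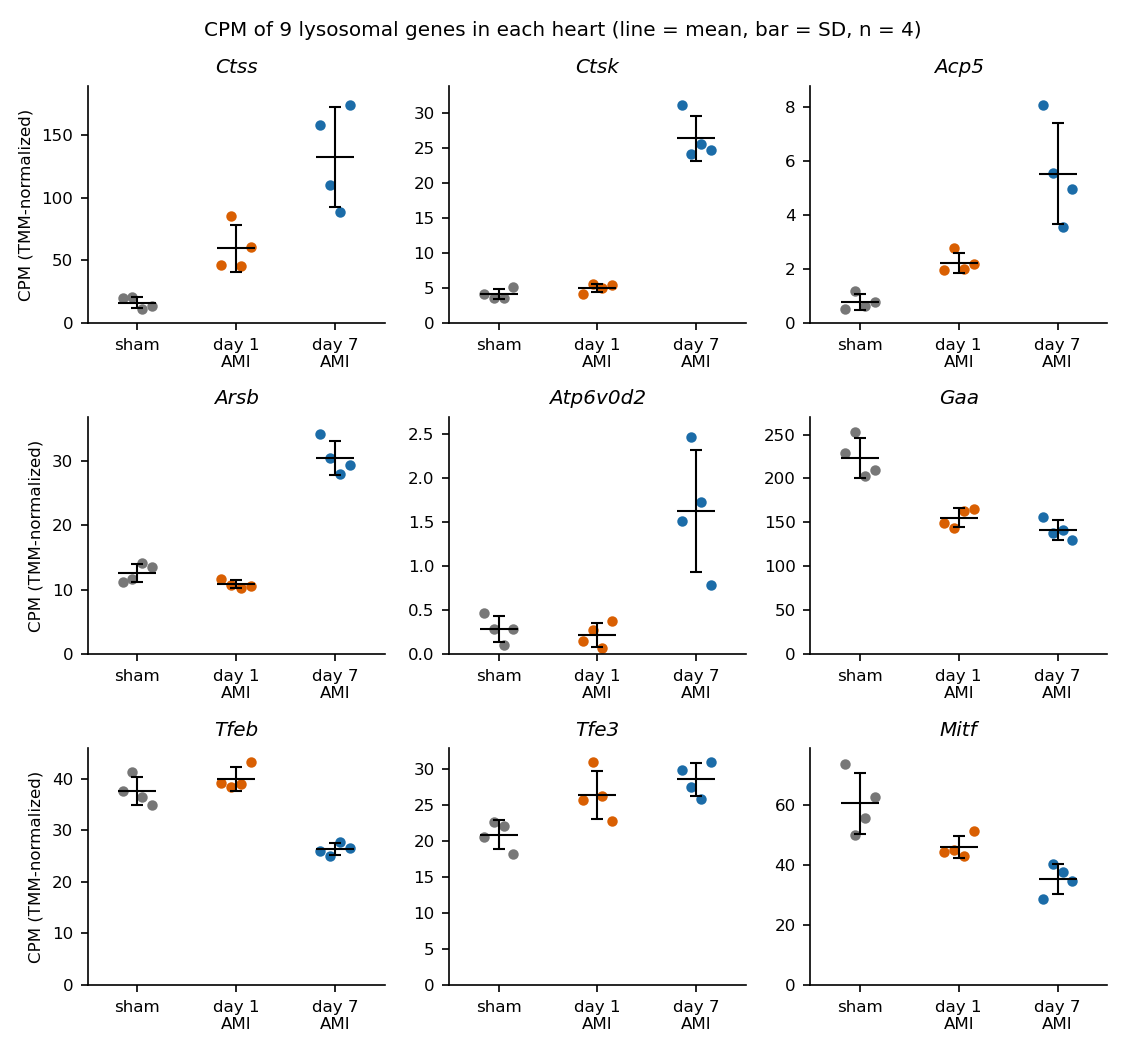
CPM (y axis, linear and starting at 0) of 9 lysosomal genes in each heart of the 3 groups, with the mean as a line and the SD as a bar (n = 4). *Ctsk*, *Arsb* and *Atp6v0d2* are high only in the day 7 hearts, *Ctss* and *Acp5* step up on both days, and *Gaa*, *Tfeb* and *Mitf* are lowest on day 7 with TMM scaling, whereas the log2(TPM + 1) values of *Gaa*, *Tfeb* and *Mitf* on day 7 did not differ from sham past the test and that of *Tfeb* was at 0.0089.

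Genes of sphingolipid and cholesterol handling divided. On day 7, 3 of 5 rose and 2 fell, and on day 1, 1 rose and 2 fell. *Asah1*, acid ceramidase, was at 34.5, 29.2, 30.3 and 32.8 CPM in the sham hearts, 42.3, 40.8, 35.2 and 38.8 CPM on day 1, and 61.1, 63.6, 55.7 and 62.5 CPM on day 7. Each group of hearts was clear of the others, and *Asah1* rose on day 1 (log2 FC 0.31, SE 0.082, FDR 0.00836) and on day 7 (log2 FC 0.94, SE 0.083, FDR 5.35e-07). *Lipa*, the acid lipase that frees cholesterol from its esters, and *Npc2*, the soluble carrier of that cholesterol, rose on day 7 by 0.91 (FDR 1.96e-06) and 0.79 (FDR 3.95e-05). *Npc1*, the membrane partner of *Npc2* in exporting cholesterol, was at 58.2, 54.6, 72.3 and 78.8 CPM in the sham hearts, 46.2, 42.3, 48 and 49.3 CPM on day 1, and 48.2, 41.4, 53.9 and 46.8 CPM on day 7, with every infarcted heart below every sham heart. It fell by 0.50 on day 1 (FDR 0.00349) and by 0.47 on day 7 (FDR 0.00295) with TMM and was at 0.090 on day 7 on the log2(TPM + 1) scale (FDR 0.528). *Psap*, the precursor of the saposins that activate sphingolipid hydrolases, fell by 0.36 and 0.40 with TMM (FDR 0.014 and 0.00439) and was at -0.045 and 0.15 on the log2(TPM + 1) scale, neither past the test.

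The acid phosphatases both rose on both days. *Acp5*, the tartrate-resistant acid phosphatase of osteoclasts and activated macrophages, was at 0.522, 1.19, 0.631 and 0.765 CPM in the sham hearts, 1.95, 2.78, 2.00 and 2.21 CPM on day 1, and 8.07, 5.56, 3.58 and 4.97 CPM on day 7. All day 1 hearts were above all sham hearts and all day 7 hearts above all day 1 hearts. *Acp5* rose 2.83-fold on day 1 (log2 FC 1.5, SE 0.30, FDR 0.00137) and 7.01-fold on day 7 (log2 FC 2.81, SE 0.29, FDR 2.27e-06). *Acp2*, the widely expressed lysosomal acid phosphatase, was at 41.6, 34.8, 32.8 and 37.8 CPM in the sham hearts, 38.7, 44.0, 42.4 and 45.7 CPM on day 1, and 46.7, 44.9, 46.6 and 45.5 CPM on day 7. Its sham and day 1 hearts overlapped, its day 1 rise (log2 FC 0.22, SE 0.083, FDR 0.0496) was lost in 10 of the 12 fits that left out 1 heart (FDR up to 0.151), and its day 7 rise (log2 FC 0.32, SE 0.083, FDR 0.00406) was kept in all 12.

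Among 9 membrane proteins, day 1 gave 4 rises, each a DEG, and 3 falls, and day 7 gave 5 rises, 3 of them DEGs, and 1 fall. *Cd68*, macrosialin, a heavily glycosylated protein of macrophage lysosomes, was at 12.2, 12.7, 6.60 and 7.17 CPM in the sham hearts, 28.8, 32.1, 26.3 and 17.9 CPM on day 1, and 47.6, 33.1, 29.7 and 37.1 CPM on day 7. All infarcted hearts were above all sham hearts and the infarcted groups overlapped (log2 FC 1.44, SE 0.23, FDR 0.000315 on day 1, and log2 FC 1.93, SE 0.23, FDR 8.07e-06 on day 7). *Slc11a1*, a metal transporter of phagosomes, rose by 1.88 on day 1 (FDR 8.16e-06) and 1.93 on day 7 (FDR 6.2e-07), with no difference between these days past the test (log2 FC 0.043, SE 0.16, FDR 0.84). *Laptm5*, a lysosomal protein of hematopoietic cells, rose by 1.17 and 1.82, and its further rise from day 1 to day 7 was lost without day 7 heart 1 (FDR 0.0517).

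*Cd63*, a tetraspanin of late endosomes and secretory lysosomes, rose most on day 1. It was at 85.2, 103, 82.2 and 77.2 CPM in the sham hearts, 189, 185, 171 and 179 CPM on day 1, and 174, 154, 128 and 127 CPM on day 7, so that every infarcted heart was above every sham heart. The rise was 2.08-fold on day 1 (log2 FC 1.06, SE 0.11, FDR 2.4e-05) and 1.68-fold on day 7 (log2 FC 0.75, SE 0.11, FDR 5.73e-05). From day 1 to day 7 *Cd63* fell by 0.31 (SE 0.11, FDR 0.0336), a call lost without day 1 heart 1, 2 or 4 or day 7 heart 3 or 4 (FDR up to 0.106), with library totals alone (FDR 0.249) and on the TPM scale (FDR 0.585). *Scarb2* encodes LIMP-2, which carries β-glucocerebrosidase to lysosomes, and was at 255, 240.3, 219.6 and 211 CPM in the sham hearts, 178, 196, 184 and 226 CPM on day 1, and 181, 161, 178 and 156 CPM on day 7. Every day 7 heart was below every sham heart, and *Scarb2* fell by 0.46 on day 7 with TMM (SE 0.094, FDR 0.000818) and was at 0.10 on the log2(TPM + 1) scale (FDR 0.392).

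*Lamp1*, *Laptm4a* and *Mcoln1* fell on day 1 with TMM, by 0.33, 0.40 and 0.30 (FDR 0.00212, 0.00349 and 0.017), and on the log2(TPM + 1) scale were at -0.0082, -0.085 and 0.016, none past the test. On day 7 they were, with TMM, at 0.056, -0.031 and -0.020, none past the test. On the log2(TPM + 1) scale *Laptm4a* and *Mcoln1* were at 0.52 and 0.58 on day 7 (FDR 8.19e-05 and 0.00188). *Lamp1* reached 0.61 on day 7 over the alternative scalings, filters and tools, with FDRs down to 7.81e-06. All of them rose from day 1 to day 7, by 0.39, 0.37 and 0.28. For *Mcoln1* the day 1 fall was lost without day 1 heart 2 (FDR 0.0582), and the rise to day 7, in which hearts overlapped, was lost without day 1 heart 2 or day 7 heart 3 or 4 (FDR up to 0.0666). *Lamp2* was at -0.0032 on day 1 and rose by 0.26 on day 7 (FDR 0.0281), a call lost without sham heart 2, 3 or 4 or day 7 heart 2 (FDR up to 0.103).

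Of 5 V-ATPase subunits, 2 rose and 0 fell on day 1, and 3 rose and 1 fell on day 7. The pump has a membrane sector, V0, and a cytosolic sector, V1, and the d subunit of V0 exists in a broadly expressed form, *Atp6v0d1*, and a form known from osteoclasts and some macrophages, *Atp6v0d2*. *Atp6v0d2* was at 0.469, 0.287, 0.097 and 0.287 CPM in the sham hearts, 0.153, 0.269, 0.0654 and 0.378 CPM on day 1, and 1.51, 2.47, 1.73 and 0.782 CPM on day 7. These values rested on 9, 7, 2 and 6 counts in the sham hearts, 4, 9, 2 and 12 on day 1, and 49, 64, 47 and 23 on day 7. All day 7 hearts were above all others, and 1 sham and 1 day 1 heart were under the floor of 3 counts. The rise was 5.64-fold against sham (log2 FC 2.5, SE 0.49, FDR 0.000513) and 7.24-fold against day 1 (log2 FC 2.86, SE 0.48, FDR 0.000268). On the log2(TPM + 1) scale, which understates the change of such low genes, the day 7 log2 FC was 0.88.

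*Atp6v0d1* was at 35.5, 41.0, 35.7 and 39.5 CPM in the sham hearts, 43.2, 42.0, 41.4 and 41.0 CPM on day 1, and 45.0, 43.8, 41.1 and 43.1 CPM on day 7. Its day 7 hearts lay just above the sham hearts, and the rise (log2 FC 0.19, SE 0.071, FDR 0.0329) was lost without sham heart 1 or 3 or day 7 heart 1, 2 or 4 (FDR up to 0.104). In TPM, *Atp6v0d2* was at 0.437% of *Atp6v0d1* in sham hearts, 0.306% on day 1 and 2.12% on day 7, so the osteoclast form stayed a small part of the d subunit transcripts in every group. *Atp6v1a*, the catalytic subunit of V1, rose by 0.62 on day 1 (FDR 0.00011) and by 0.9985 on day 7 (FDR 4.17e-07), just under a FC of 2.

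*Atp6v1b2*, the V1 subunit that pairs with *Atp6v1a*, was at 105, 99.1, 102 and 100.4 CPM in the sham hearts, 129, 143, 114 and 127 CPM on day 1, and 102, 104, 93.5 and 107 CPM on day 7. With TMM the day 1 hearts were above all others, and the day 7 hearts overlapped the sham hearts. In TPM the day 7 hearts, at 56.7 to 70.1, were all above the sham hearts, at 41.15 to 46.0, and overlapped the day 1 hearts, at 60.3 to 76.8. The day 7 log2 FC against sham reached 0.55 over the alternative scalings, filters and tools, with FDRs down to 0.000164. *Atp6v1b2* rose on day 1 (log2 FC 0.34, SE 0.078, FDR 0.00346). From day 1 to day 7 it fell by 0.34 (SE 0.078, FDR 0.00284), a fall that did not pass with library totals alone (FDR 0.0713) or on the TPM scale (FDR 0.392). *Atp6v0a1*, a membrane subunit of V0, was at 137, 139, 124 and 117 CPM in the sham hearts, 132, 125, 140.4 and 131 CPM on day 1, and 117, 102, 108 and 116 CPM on day 7. Its day 7 hearts were the lowest with TMM, with a fall of 0.22 against sham (SE 0.077, FDR 0.0231) that turned into a rise of 0.39 on the log2(TPM + 1) scale (FDR 0.00483) and was lost with TMM without sham heart 1 or 2 or day 7 heart 2 or 3 (FDR up to 0.0678).

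Of the 3 MiT/TFE factors, 1 rose and 1 fell on day 1, and 1 rose and 2 fell on day 7 with TMM, and on the log2(TPM + 1) scale 0 fell on either day. *Tfe3* was at 20.5, 22.7, 22.1 and 18.2 CPM in the sham hearts, 25.7, 30.9, 26.2 and 22.7 CPM on day 1, and 29.9, 27.5, 25.9 and 31.0 CPM on day 7. The infarcted hearts were above the sham hearts, by a small margin on day 1. *Tfe3* rose on day 1 (log2 FC 0.34, SE 0.11, FDR 0.0194), a call lost without sham heart 4 or day 1 heart 2 (FDR up to 0.0710), and on day 7 (log2 FC 0.45, SE 0.11, FDR 0.00196). *Tfeb* was at 37.6, 41.3, 36.5 and 34.9 CPM in the sham hearts, 39.2, 38.3, 39.1 and 43.3 CPM on day 1, and 26.0, 25.0, 27.8 and 26.6 CPM on day 7. With TMM, sham and day 1 hearts overlapped and all day 7 hearts were lower than either. In TPM every day 1 heart, at 27.8 to 34.9, was above every sham heart, at 19.6 to 25.3. The day 7 hearts, at 20.2 to 24.55 TPM, lay within the sham range. Over the alternative scalings, filters and tools the day 1 log2 FC against sham ran from 0.078 to 0.41, with FDRs from 0.00588 to 0.544.

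*Tfeb* fell by 0.51 against sham on day 7 (SE 0.076, FDR 5.22e-05) with TMM and was at 0.0089 on the log2(TPM + 1) scale (FDR 0.948). Against day 1 it fell by 0.60 (SE 0.076, FDR 2.83e-05), a fall that also passed with library totals alone (log2 FC -0.48, FDR 0.00104) and on the log2(TPM + 1) scale (log2 FC -0.39, FDR 0.0125). *Mitf* was at 73.6, 49.9, 55.5 and 62.7 CPM in the sham hearts, 44.4, 45.0, 43.1 and 51.4 CPM on day 1, and 28.6, 40.1, 37.6 and 34.7 CPM on day 7, with sham and day 1 hearts overlapping by 1 heart of each group and every day 7 heart below both. *Mitf* fell by 0.39 on day 1 and by 0.78 on day 7 with TMM (SE 0.12 and 0.13, FDR 0.0207 and 0.000102), the day 1 fall was lost without sham heart 1 or day 1 heart 1, 2 or 3 (FDR up to 0.0695), the day 7 fall passed with library totals alone (log2 FC -0.37, FDR 0.00909), and on the log2(TPM + 1) scale the values were -0.046 and -0.14, neither past the test.

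The balance among the factors does not depend on the scaling of libraries, since it is a ratio within a heart. In TPM, *Tfeb* was at 2.79 ± 0.188 (SD, n = 4) times *Tfe3* in sham hearts, 2.48 ± 0.583 on day 1 and 1.35 ± 0.128 on day 7, with the day 7 hearts between 1.25 and 1.53 and the sham hearts between 2.53 and 2.98. *Mitf* was at 2.33 ± 0.702 times *Tfe3* in sham hearts, 1.45 ± 0.301 on day 1 and 0.984 ± 0.140 on day 7. The 4 day 7 hearts were below the 8 others in both ratios. A ratio shows unequal change and not which of its genes changed.

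*Grn* encodes progranulin, a secreted protein that is cut into granulins in the lysosome. It was at 117, 121, 100.3 and 102 CPM in the sham hearts, 129, 161, 129 and 138 CPM on day 1, and 294, 216, 185 and 235 CPM on day 7, with each group of hearts clear of the others. Its day 1 rise (log2 FC 0.34, SE 0.13, FDR 0.0449) was lost in 9 of the 12 fits that left out 1 heart (FDR up to 0.141), and its day 7 rise was 2.12-fold (log2 FC 1.08, SE 0.13, FDR 7.02e-06).

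In level, a few genes made up most of the lysosomal transcripts. *Ctsd* and *Psap* were the highest of the 48 in every group. In sham hearts *Ctsd* was at 727 ± 65.5 TPM (SD, n = 4) and *Psap* at 704 ± 50.7 TPM, 20.9% and 20.2% of the summed TPM of the 48 genes, with a difference between them smaller than either SD. *Lamp1*, *Laptm4a* and *Ctsb* followed at 278 ± 18, 265 ± 7.29 and 260.4 ± 13.0 TPM. On day 7 *Ctsd* was at 1161 ± 149 TPM, *Psap* at 784 ± 81.0 TPM and *Ctsb*, next in order, at 591 ± 67.4 TPM. The lowest gene in every group was *Atp6v0d2*, at 0.135 ± 0.0661 TPM in sham hearts and 1.13 ± 0.468 TPM on day 7. *Ctss* went from 2.23% of *Ctsd* in sham hearts to 9.09% on day 1 and 17.0% on day 7, in TPM.

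The hearts varied more for some genes than for others. The median SD of the log2 CPM of a gene among 4 hearts was 0.141 in sham, 0.133 on day 1 and 0.162 on day 7. It was largest for *Atp6v0d2* in every group, at 0.637, 0.667 and 0.644. Day 7 heart 1 had the highest CPM of its group for 31 of the 48 genes, and without it 31 genes rose and 8 fell on day 7 against sham and 10 were DEGs that rose. Markers of macrophages summed to 1443 CPM in this heart and to between 946 and 1328 CPM in the other day 7 hearts. Fibroblast markers summed to 12406 CPM in it and to between 6702 and 8974 CPM in the others. Leukocyte markers summed to 316 CPM in it and to between 202 and 348 CPM in the others. The part of any of these cells in the high values of this heart was not tested.

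Marker genes of other cells also differed between the groups, not always in step with the lysosomal genes. Counts of markers stand beside shares of all genes tested of 22% that rose and 19.9% that fell on day 1. On day 7 these shares were 30.9% and 28.4%. The 48 lysosomal genes summed to between 6263 and 7052 CPM in sham hearts, 6192 and 6966 CPM on day 1, and 7146 and 8497 CPM on day 7. In TPM the sums were 3321 to 3879, 4128.5 to 4869 and 5526 to 7017, so that on this scale every day 1 heart was also above every sham heart. Of 14 macrophage markers, 9 rose on day 1, and 13 rose and 1 (*Cd163*) fell on day 7, and their sum ran from 340 to 533 CPM in sham hearts, from 590 to 848 CPM on day 1 and from 946 to 1443 CPM on day 7. All 8 general leukocyte markers rose on both days, with sums of 55.4 to 93.8, 225 to 332 and 202 to 348 CPM. From day 1 to day 7, 1 of the 8 leukocyte markers rose (24.2% of all genes). Of 6 endothelial markers, 0 rose and 1 fell on day 1, and 4 rose and 1 fell on day 7. Of 8 cardiomyocyte markers, 7 fell on day 1 and 6 on day 7, with sums of 69202 to 82817, 43310.4 to 54659.9 and 39882 to 45543 CPM, and their summed TPM was also lower in every infarcted heart. The part of these cells in the rises of *Ctss*, *Cd68*, *Slc11a1*, *Laptm5*, *Acp5* and the other lysosomal genes, or in the falls of *Gaa*, *Psap*, *Tfeb* and *Mitf*, was not tested.

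**Figure D3:**
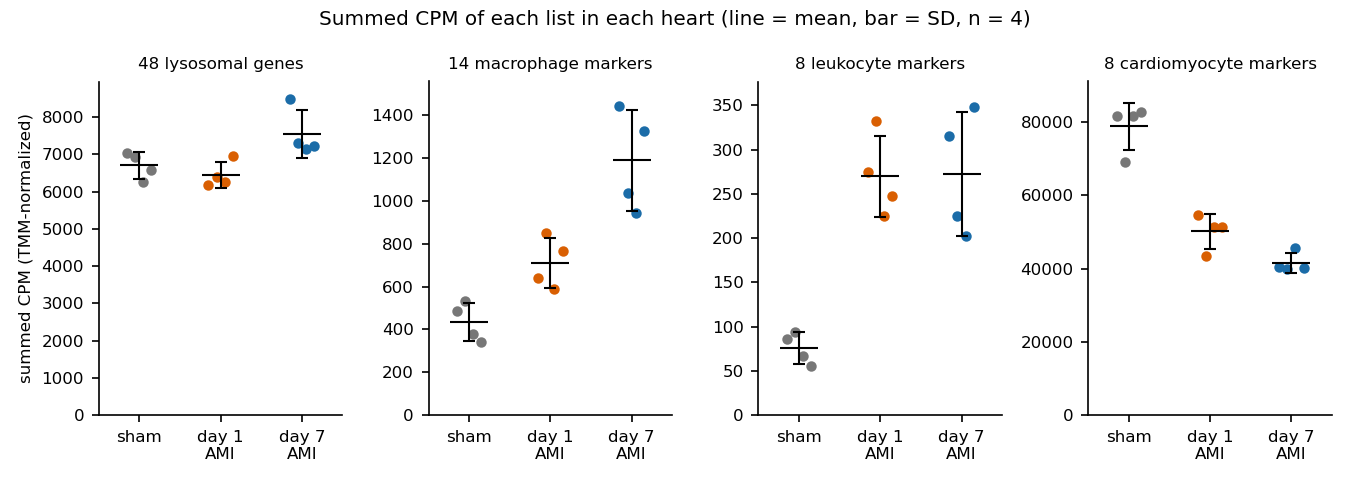
Summed CPM (y axis, linear and starting at 0) in each heart of the 48 lysosomal genes and of the macrophage, leukocyte and cardiomyocyte marker lists, with the mean as a line and the SD as a bar (n = 4). With this TMM scaling the lysosomal sum overlaps between sham and day 1 hearts, which do not overlap in TPM, and is higher in all day 7 hearts, the macrophage sum steps up on both days, and the cardiomyocyte sum is lower in all infarcted hearts.

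*Ctsk*, *Acp5* and *Atp6v0d2* are known together from osteoclasts, and 6 markers of those cells are given here, of which 2 passed the filter. Whether the hearts held osteoclasts was not tested. *Calcr*, the calcitonin receptor, had 0 counts in every sham and day 7 heart and at most 1 count on day 1. *Dcstamp* and *Ocstamp*, which osteoclast precursors need to fuse, had at most 0 and 2 counts in a sham heart, 9 and 10 on day 1, and 7 and 8 on day 7. *Oscar* had at most 10, 10 and 8 counts in the 3 groups. *Nfatc1* and *Tnfrsf11a*, which other cells also express, rose on day 7 (log2 FC 0.35, SE 0.10, FDR 0.00936, and log2 FC 1.24, SE 0.19, FDR 6.87e-05). In neutrophil markers, 12 in all, the sum was 2.44 to 60.3 CPM in sham hearts, 37.9 to 133 CPM on day 1 and 8.19 to 52.5 CPM on day 7. Of the 7 that passed the filter, 2 rose and 1 fell on day 1 (22% and 19.9% of all genes). On day 7, 1 rose and 1 fell (30.9% and 28.4% of all genes), so the sum does not stand for each marker. Fibroblast markers rose in 7 of 7 genes on day 7 (30.9% of all genes). Their sum was then 6702 to 12406 CPM against 960 to 1209 CPM in sham hearts.

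Other lysosomal pathway genes, 165 in 7 lists of which 151 were tested, were counted in the same fit. On day 1, 29 rose and 42 fell, where 22% of all genes rose and 19.9% fell. On day 7, 45 rose and 53 fell, where 30.9% of all genes rose and 28.4% fell, so the share that rose was near that of all genes on both days. Their median day 7 log2 FC was -0.038. With log2(TPM + 1), 104 rose and 3 fell on day 7. Of 34 other hydrolases and activators, 18 rose and 6 fell on day 7, with *Ctsw* (log2 FC 1.87, SE 0.64, FDR 0.0201) and *Prcp*, a prolyl carboxypeptidase (log2 FC 1.84, SE 0.13, FDR 7.81e-08), having the largest changes. Of 26 other membrane proteins and transporters tested, 10 rose and 5 fell, with *Gpnmb*, a glycoprotein of macrophage lysosomes (log2 FC 4.59, SE 0.28, FDR 2.93e-08), and *Slc15a3*, a peptide and histidine transporter (log2 FC 1.93, SE 0.27, FDR 2.98e-05), at the top. Of 16 other V-ATPase subunits tested, 5 rose and 6 fell, and the largest changes were in *Atp6v0a4* (log2 FC 2.97, SE 0.37, FDR 1.11e-05) and *Tcirg1*, the V0 a3 subunit known from osteoclasts (log2 FC 1.88, SE 0.18, FDR 8.8e-07).

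Of 21 regulators of the MiT/TFE factors, which include the Rag GTPases and the Ragulator complex that hold the factors at the lysosome, 1 rose and 5 fell on day 1, and 2 rose and 16 fell on day 7, with a median day 7 log2 FC of -0.39. These falls are with TMM, and 3 of all 151 genes fell on day 7 with log2(TPM + 1). Of all genes tested, 22% rose and 19.9% fell on day 1, and 30.9% rose and 28.4% fell on day 7. *Tfec*, a further member of the factor family, rose (log2 FC 1.36, SE 0.48, FDR 0.0254), and *Lamtor2*, a Ragulator subunit, fell (log2 FC -0.88, SE 0.15, FDR 0.000144). Of 29 autophagy genes, 1 rose and 10 fell on day 1, and 3 rose and 15 fell on day 7, with a median of -0.26, and the largest falls were in *Map1lc3a*, an LC3 gene (log2 FC -1.18, SE 0.12, FDR 1.52e-06), and *Calcoco1* (log2 FC -0.99, SE 0.11, FDR 5.4e-06). In 20 genes of sorting to the lysosome, 4 rose and 5 fell on day 7, including *Ap3s1*, an AP-3 adaptor subunit (log2 FC 1.14, SE 0.14, FDR 1.21e-05), and *Gga1* (log2 FC -0.53, SE 0.10, FDR 0.000302). Of 12 cathepsin inhibitors only 5 passed the filter, of which 3 rose and 0 fell, including *Serpinb1a* (log2 FC 3.65, SE 0.18, FDR 6.85e-09) and *Cstb*, cystatin B (log2 FC 0.67, SE 0.12, FDR 0.000304). On day 7, 2 of the 151 genes fell by a FC of 2 or greater with TMM and 0 did on the TPM scale.

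Read against the promoters printed above, the genes with a CACGTG core and those without are given apart, with TMM. Of the 13 with the core, 8 rose and 1 (*Gaa*) fell on day 7, 0 were DEGs, and the median log2 FC was 0.34, with *Atp6v1a* highest at 0.9985. Of the 29 with a window and no core, 20 rose and 6 fell, 10 were DEGs and the median was 0.75. Of all genes tested, 30.9% rose, 28.4% fell and 15.3% were DEGs that rose. With TMM, *Lamp1*, with 4 cores, was at 0.056, *Mcoln1*, with 2, at -0.020, *Ctsa* at 0.34 and *Ctss*, with none, at 3.02. These values depended on the scaling, and on the log2(TPM + 1) scale *Mcoln1* was at 0.58 (FDR 0.00188). In TPM, *Lamp1* was at 405 to 434 in day 7 hearts and 267 to 304 in sham hearts. On day 1 the medians were -0.14 with the core and 0.13 without. The difference between the 2 sets of genes was not tested.

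**Figure D4:**
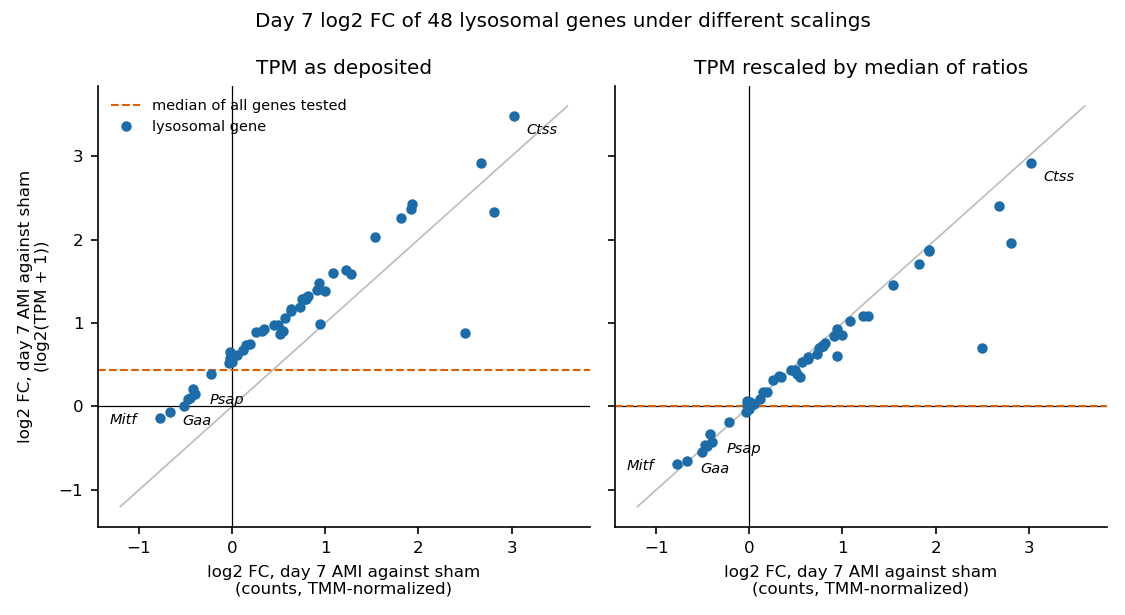
Log2 FC of the 48 lysosomal genes in day 7 AMI against sham with TMM-normalized counts (x axis) and with log2(TPM + 1) (y axis), from TPM as deposited (left) and from TPM rescaled by the median of ratios (right). The dashed line is the median of all genes tested, 0.44 on the left and 0.0073 on the right, and of the 8 genes that fell with TMM, 2 were below 0 on the left and 8 on the right.

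No gene that rose with TMM was below 0 on the log2(TPM + 1) scale or with library totals alone. Of the 10 genes that fell on day 1, 8 were below 0 on the log2(TPM + 1) scale and 10 were below the median of all genes, with differences from it of -0.47 to -0.091. Of the 8 that fell on day 7, 2 were below 0 and 8 below the median, with differences of -0.57 to -0.049. After the TPM values had been rescaled by the median of ratios, an alternative added after the values were seen, 8 of the 10 and 7 of the 8 fell past the test. Whether the RNA content of the hearts differed was not measured, so a fall of these genes relative to others cannot be told apart from a rise of the others.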

How the data were processed

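RNA-seq was run on 12 hearts, 4 per group, labelled as separate samples, with 1 library per heart. The authors deposited gene counts and TPM, both without further scaling between libraries. The submitters' processing notes name CASAVA 1.8, STAR 2.4.0j, RSEM and the mm10 build, and the strand counted is not given in the sources used here. From the deposited counts, genes were filtered (filterByExpr), scaled by TMM and tested with edgeR 4.0.16 (quasi-likelihood, 1 fit of 12 libraries, Benjamini-Hochberg adjustment) in R 4.3.3. The SE is the log2 FC divided by the square root of the F statistic. Alternatives used limma 3.58.1 on log2(TPM + 1), DESeq2 1.42.0, other scalings and filters, a replicate block and each heart left out. In simulated day 7 AMI against sham counts for 15306 genes, edgeR called 83 of 100 genes changed by a log2 FC of 1 and 98 of 100 changed by 2, with 12 false calls. The simulation changed only 200 genes, as many up as down, drawn from genes above a limit on expected counts. Far more genes passed in the real comparison, and no shift between groups was put in, so it does not bear on the choice of scaling.

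The 48 genes and all gene lists were chosen with earlier results of these data known. Values in every heart are given for the genes with the largest and smallest day 7 log2 FC of each role, both d subunits of the V-ATPase, the MiT/TFE factors, genes whose day 1 and day 7 changes have opposite signs with both past the test, and genes that fell from day 1 to day 7. *Ctsk* was added after its values were seen. Of each other list, the 2 genes with the largest day 7 change past the test could be named. The markers of osteoclasts and *Cd163* were named after their values were seen. Exon overlaps come from the GRCm38 annotation. After *Arsb* and *Ctsd*, opposite-strand genes made up the next largest, with overlapped exon bases of 26.8% for *Ctsl*, 21.6% for *Sgsh* and 17.4% for *Ctsa*. They were 12.8% for *Ctsb*, 12.8% for *Hexa* and 12.6% for *Acp2*, and the counts of these genes carry the same uncertainty about the strand. Counts of 2 hearts of a group differed by more than sampling noise in every pair (chi-square per degree of freedom at least 8.84). Intervals were not computed for single libraries, and a floor of 3 counts covers counting error only.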

Additional observations from a re-analysis of the deposited data

Results flagged for a closer look

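Single hearts stood apart from the other 3 of their group in 8 of the 144 gene and group combinations examined by Dixon's criterion, and chance alone marks about 1 in 20, or 7.2. On day 1, heart 2 had 15.01 CPM of *Glb1* against 18.9 to 19.4 CPM in the others, and heart 3 had 35.1 CPM of *Atp6v1a* against 38.2 to 38.6 CPM. Among sham hearts, heart 2 had 68.4 CPM of *Hexa* against 60.5 to 61.2 CPM, and heart 3 had 29.6 CPM of *Lipa* against 33.0 to 33.6 CPM. On day 7, heart 1 had 1342 CPM of *Psap* against 1112 to 1133 CPM and 68.2 CPM of *Lipa* against 57.4 to 59.3 CPM. Day 7 heart 2 had 245 CPM of *Lamp2* against 199 to 206 CPM, and day 7 heart 3 had 22.2 CPM of *Neu1* against 23.6 to 23.9 CPM.

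For 12 genes the day 1 and day 7 differences from sham had opposite signs with TMM and the difference between these days passed edgeR's test. The share of all genes tested with this pattern was not computed. The difference of day 7 from day 1, as a log2 FC, was 0.40 for *Ctsa*, 0.43 for *Tpp1*, 0.69 for *Glb1*, 0.67 for *Hexa*, 0.82 for *Man2b1*, 1.49 for *Arsb*, 0.74 for *Sgsh*, 0.39 for *Lamp1*, 0.26 for *Lamp2*, 2.86 for *Atp6v0d2*, -0.26 for *Atp6v0a1* and -0.60 for *Tfeb*. That of *Lamp2* was lost without day 1 heart 1, 2 or 3 or day 7 heart 2 or 4 (FDR up to 0.117), and that of *Atp6v0a1* without day 1 heart 3 (FDR 0.05003). In none of them did both differences from sham pass the test, so only the change between the infarcted groups is shown. On the log2(TPM + 1) scale the sign of the day 1 or day 7 difference turned for all of them other than *Lamp1* and *Atp6v0d2*, so that *Ctsa*, *Tpp1*, *Glb1*, *Hexa*, *Man2b1*, *Arsb*, *Sgsh*, *Lamp2*, *Atp6v0a1* and *Tfeb* had no opposite signs there.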

How the results depend on the processing

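The counts of the 48 genes moved by less than 1.5 times with median-of-ratios or upper-quartile factors, without the mitochondrial genome, with other filters on counts and with DESeq2. With library totals alone, log2(TPM + 1), log2(TPM + 0.1) and log2(TPM + 1) without a filter, the genes that rose on day 1 numbered 29, 29, 29 and 29 and those that fell 1, 0, 0 and 0. On day 7 against sham those that fell numbered 2, 0, 0 and 0 and the DEGs that rose 23, 22, 27 and 22. From day 1 to day 7 those that fell numbered 1, 1, 1 and 1, and 3 with rescaled TPM. These scalings raise the median of all genes, as given above.

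In the same order, the 151 other pathway genes gave 57, 66, 67 and 61 rises and 10, 8, 8 and 6 falls on day 1, 91, 104, 103 and 105 rises and 13, 3, 3 and 3 falls on day 7, and 10, 7, 7 and 5 falls from day 1 to day 7, with 68, 67 and 65 rises on the 3 TPM scales. Their DEGs that rose numbered 10 on day 1 with library totals alone and 10 with log2(TPM + 0.1), 28 and 32 on day 7, and 11 from day 1 to day 7 with log2(TPM + 0.1), and with rescaled TPM 2, 11 and 3. Their DEGs that fell on day 7 numbered 0 in all 4 settings, and from day 1 to day 7 numbered 1 without the low-count filter, 1 with DESeq2 on 12 libraries, 1 with DESeq2 on 2 groups and 1 with log2(TPM + 1) without a filter.

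Leaving out 1 heart at a time gave 15 to 17 rises, 6 to 11 falls, 7 to 7 DEGs that rose and 0 to 0 that fell among the 48 genes on day 1, with the 6 falls without day 1 heart 2. The ranges were 30 to 32, 7 to 8, 10 to 12 and 0 to 0 on day 7 and 24 to 28, 3 to 5, 4 to 5 and 0 to 0 from day 1 to day 7, with the 3 falls without day 1 heart 4. Among the other pathway genes the DEGs that rose on day 1 ran from 3 to 8, lowest without sham heart 3 or day 1 heart 2, those that fell on day 1 from 0 to 2, highest without day 1 heart 3, and those that fell from day 1 to day 7 from 0 to 2, highest without day 7 heart 1.

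The labels do not state that the replicate numbers pair the hearts. Deviations of same-numbered hearts correlated between -0.244 and 0.229 over 12 pairs. Those of differently numbered hearts correlated between -0.271 and 0.250 over 36 pairs. With so few hearts in a group, a weak pairing would not be seen in this way. With the replicate number as a block, 17 of the 48 genes rose and 9 fell on day 1, 31 and 8 on day 7, and 26 and 5 from day 1 to day 7, and the DEGs of the other pathway genes that fell on day 1 went from 0 to 1.

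Signs also turned with the scaling, and the genes given here are those for which the value passed the test in at least 1 of the fits compared. On day 1 they were *Ctsa* (0.21 with library totals alone, 0.33 with log2(TPM + 1), with a filter or without, and 0.33 with log2(TPM + 0.1)), *Lamp2* (0.28, 0.34 and 0.34), *Tpp1* (0.14 and 0.15 on the TPM scales) and *Mcoln1* (0.0165 and 0.0174). On day 7 they were *Ctsl* (0.38, 0.65 and 0.65), *Laptm4a* (0.37, 0.52 and 0.52), *Mcoln1* (0.38, 0.58 and 0.59), *Atp6v0a1* (0.18, 0.39 and 0.39) and, on the TPM scales, *Idua* (0.21 and 0.23), *Psap* (0.15 and 0.15), *Npc1* (0.090 and 0.096), *Scarb2* (0.10 and 0.10) and *Tfeb* (0.0089 and 0.0095). From day 1 to day 7 it was *Atp6v0a1* (0.0465 and 0.0471).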
